A study of Mus musculus with 2 samples.

Results

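The genes of the constitutive proteasome were taken by name: every gene whose symbol starts with Psma, Psmb, Psmc, Psmd, Psme, Psmf or Psmg followed by a digit, without the interferon-induced Psmb8, Psmb9, Psmb10, Psme1 and Psme2. The rule found 46 of the 22911 genes that could be named on the array, with 72 probes. No measured value entered it. The 46 fall into 16 genes of the 20S core, 17 genes of the 19S cap, 3 assembly chaperones of the cap, 4 assembly chaperones of the core, 3 genes of other caps and inhibitors, and 3 genes that only share the name.

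The RNA came from LKS+ cells of wild-type mice, that is, bone marrow (BM) cells without lineage markers that carry Kit and Sca-1 and include the blood-forming stem and progenitor cells. LKS+ cells were kept in serum-free medium with SCF, IL-6 and IL-3 for 2 days and then given extracellular vesicles (EVs) isolated from spleen (SP) at 150 μg/ml for 24 h. One group received EVs of control mice (control EVs) and the other EVs of mice with chronic myelogenous leukemia (CML EVs), in which BM cells carrying a BCR-ABL retrovirus give rise to the disease. Each group was 1 one-colour Agilent array, so no test, SD or p-value across samples could be given, and every difference has no replicate check. The methods state that the CML donors were irradiated with 5 Gy and mention no irradiation of control donors, while the sample labels do not mention irradiation at all, so effects of the donors' leukemia and of their irradiation cannot be told apart. Mice were male BALB/c or C57BL/6J, bought at 6 to 8 weeks of age, and which strain gave the array's cells is not stated in the sources used here.

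The proteasome is the protease that degrades most proteins tagged with ubiquitin. Its barrel, the 20S core, is a stack of rings: the outer rings of α subunits guard the entrance, and the inner rings of β subunits hold the catalytic sites. The 19S cap binds the ubiquitin chain, removes it and unfolds the substrate with a ring of ATPases. In blood cells the catalytic subunits β1 (Psmb6), β2 (Psmb7) and β5 (Psmb5) can be replaced by interferon-induced counterparts, which form the immunoproteasome. When proteasome activity falls short, the transcription factor NFE2L1 raises many subunit genes together through antioxidant response elements (AREs) in their promoters.

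Promoters of 4 genes are shown because they belong to members discussed below and hold an ARE core: Psme4, which had the highest ratio of the members, the catalytic Psmb6 and Psmb5, and the cap chaperone Psmd9, which lay on the lower side. Each is given 5′ to 3′ in the direction of the gene, from RefSeq on GRCm38.p6, and covers 250 bases before the start and 50 after it. Capitals mark the match to TGACNNNGC on either strand.
Psme4, chr11:30771525-30771824, plus strand: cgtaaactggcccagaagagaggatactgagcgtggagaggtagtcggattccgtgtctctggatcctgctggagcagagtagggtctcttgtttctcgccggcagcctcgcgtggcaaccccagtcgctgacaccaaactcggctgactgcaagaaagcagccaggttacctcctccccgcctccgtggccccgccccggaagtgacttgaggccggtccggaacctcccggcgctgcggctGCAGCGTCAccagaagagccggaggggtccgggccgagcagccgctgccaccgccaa
Psmb6, chr11:70525107-70525406, plus strand: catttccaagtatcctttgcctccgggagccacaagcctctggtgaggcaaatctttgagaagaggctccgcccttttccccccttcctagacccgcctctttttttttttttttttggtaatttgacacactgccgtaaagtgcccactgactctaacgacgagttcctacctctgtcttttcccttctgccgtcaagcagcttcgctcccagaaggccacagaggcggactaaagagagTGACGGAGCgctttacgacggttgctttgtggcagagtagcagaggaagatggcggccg
Psmb5, chr14:54617946-54618245, minus strand: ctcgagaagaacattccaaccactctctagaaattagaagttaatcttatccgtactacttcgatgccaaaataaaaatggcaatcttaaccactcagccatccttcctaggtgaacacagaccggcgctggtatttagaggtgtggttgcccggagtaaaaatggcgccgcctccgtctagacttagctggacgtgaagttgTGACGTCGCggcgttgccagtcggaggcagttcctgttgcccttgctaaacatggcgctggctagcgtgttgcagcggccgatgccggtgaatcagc
Psmd9, chr5:123227940-123228239, plus strand: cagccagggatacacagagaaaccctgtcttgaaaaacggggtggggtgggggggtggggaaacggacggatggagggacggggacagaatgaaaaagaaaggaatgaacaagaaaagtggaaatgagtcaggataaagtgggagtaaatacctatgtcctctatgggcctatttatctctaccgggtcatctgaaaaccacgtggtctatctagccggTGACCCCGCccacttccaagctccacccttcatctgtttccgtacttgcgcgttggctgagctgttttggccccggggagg

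The match began 7 bases before the start in Psme4, 9 in Psmb6, 31 in Psmd9 and 47 in Psmb5. RefSeq held a promoter for 38 of the 46 genes, in 41 windows. The ARE core stood in 6 of the 41 windows (14.6%), and in 12.4% of all 32851 promoters of this length. The other windows with a match were those of Psmc6 and Psmd12. CCAAT boxes, searched as CCAAT on both strands, stood in 15 of 41 windows (36.6%) and in 37.4% of all promoters. Both shares were near those of all promoters, and a match is only a run of letters.

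Of the 46 genes, 45 were well above background on both arrays, as set by the scanner's flag. The remaining gene was Psmb11, the β5t subunit of thymic cortical epithelium, whose signal was not well above background on the control EV array (4.31) or on the CML EV array (3.01). Signals are scanner signals scaled to a trimmed mean of 2500 per array, and ratios are given as log2 of CML EVs over control EVs. Of these 45 genes, 33 were higher and 12 lower with CML EVs (73.3% higher), where 51.9% of all 13410 named genes above background were higher. With other ways of scaling and probe choice the number of higher members ran from 27 to 40. Differences were small: the median log2 ratio was 0.04, a fold of 1.03, and that of all genes was 0.0065. Under quantile normalization the members' median was 0.0131 and that of all genes 0.00047, and with the loess trend removed they were 0.0082 and 0.0020. The lower and upper quartiles were -0.0019 and 0.09 for the 45 genes, and -0.09 and 0.09 for all genes. In a bulk sample, fewer cells of a type and less RNA per cell cannot be told apart.

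Proteasome genes are strongly expressed, so they were also set beside genes above a floor of signal. This floor, a mean signal of at least 1000, does not match the genes by brightness. Of the 45, 41 had a mean signal of at least 1000, and 33 of these (80.5%) were higher with CML EVs, beside 59.7% of the 5765 named genes of that brightness. The median log2 ratio was 0.05 for the 41 members and 0.02 for the 5765 genes. In the cumulative plot the difference lay on the lower side: the lower quartile was 0.0053 for the members and -0.04 for all genes of that brightness, whereas the upper quartiles were 0.10 and 0.09.

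**Figure D1:**
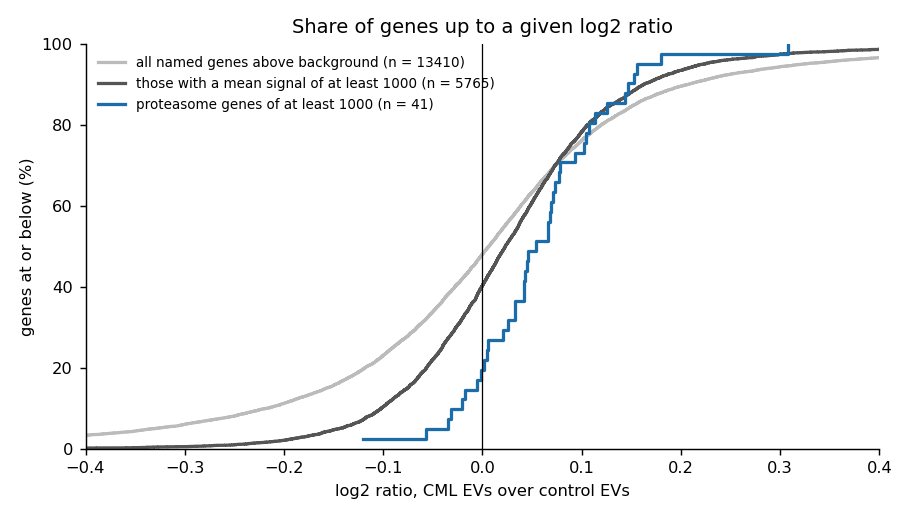
Share of genes (y axis, in percent) at or below a given log2 ratio, CML EVs over control EVs (x axis), drawn for all 13410 named genes above background, the 5765 of them with a mean signal of at least 1000, and the 41 members of that brightness (the proteasome genes of the legend). The 41 include Psmc3ip, Psme3ip1 and Psme2b, which match the name but are no constitutive subunits. The proteasome curve starts later than both others on the left, with 8 of the 41 genes below 0, and runs close to them above 0.1.

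Few members differed by 10% or more. At least 1.1-fold higher were 6 of 45 (Psma1, Psma7, Psmc1, Psmc5, Psmd14 and Psme4), and 1 was at least 1.1-fold lower (Psma8). Psma1, Psma7, Psmc1 and Psmc5 were under this size with quantile normalization, with normexp and with the loess trend removed, each of which left 2 higher and 2 lower, while median scaling gave 18 higher and 0 lower. The higher genes were Psme4 and Psmd14 with quantile normalization and loess. With normexp they were Psme4 and Psmb6, and Psmd14 was at 0.10. Under the reported setting, 17.3% of all genes above background were at least 1.1-fold higher and 17.2% lower. Over genes with a mean signal of at least 1000 these shares were 14.0% and 5.52%. None of the 45 had a signal 25% or more above that of the other array in either direction, as 10.3% of all genes had. As a measure of technical error, 272 probes printed in 10 spots each and with a mean signal of at least 1000 were used. The SD of a single spot's log2 ratio was computed from the variance between a probe's spots on each array, added over both arrays. Its median was 0.05. In the 10 of these probes between 1000 and 16384 the median SD was 0.10, so that most single ratios below are within the error of a spot.

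**Figure D2:**
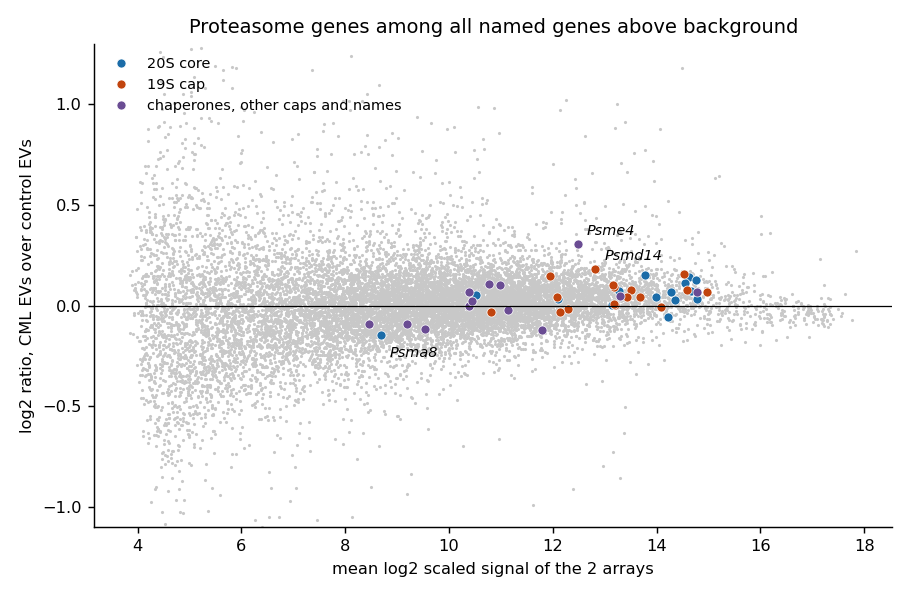
Log2 ratio, CML EVs over control EVs (y axis), by the gene's scaled signal, given as the mean log2 over both arrays (x axis), for all named genes above background (grey; values beyond the y axis limits are not drawn), with genes of the 20S core, the 19S cap and the remaining members in colour. The members lie in the middle and right of the plot, within a band from -0.15 for Psma8 to 0.31 for Psme4.

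In the 20S core, 13 of 15 measured genes were higher with CML EVs and 2 lower, at a median log2 ratio of 0.05. The β ring was the more uniform of the core's rings: all 7 measured β genes were higher, from 0.0043 for Psmb1 to 0.13 for Psmb6, with a median of 0.07. Psmb1 fell to -0.03 under quantile normalization, to -0.02 with normexp and to -0.03 with the loess trend removed. The other 6 stayed above 0 under every alternative run. Psmb6, the caspase-like β1, had a signal of 26413 on the control EV array and 28804 on the CML EV array. Psmb5, the chymotrypsin-like β5 that proteasome inhibitors such as bortezomib target first, went from 9687 to 10191, a log2 ratio of 0.07. Psmb7, the trypsin-like β2, went from 4334 to 4432, a log2 ratio of 0.03. All the catalytic genes were thus above 0, by 2.27% to 9.05%. Among the β subunits without an active site, Psmb3 was highest, with 22894 and 24758 and a log2 ratio of 0.11, and Psmb1 lowest, with 8972 and 8999.

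Among the 8 α genes, 6 were higher and 2 lower, with a median log2 ratio of 0.04, which became -0.0017 under quantile normalization. Psma1 had signals of 13269 and 14752, a log2 ratio of 0.15. Psma7 had 24064 and 26582, a log2 ratio of 0.14. Both code for subunits of the ring through which substrates enter, and each had 1 probe. Psma8, the α4 variant of the testis, was dim in these cells, with 432 and 390, a log2 ratio of -0.15, and its other probe also lay below 0, at -0.19. Psma3 was the other α gene on the lower side, with 19485 and 18728, a log2 ratio of -0.06, and its other probe gave 0.07. Psma4, with 20778 and 21156 and a log2 ratio of 0.03, had 4 probes, of which 1 lay below 0, at -0.10.

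In the 19S cap, 13 of 17 genes were higher and 4 lower, with a median log2 ratio of 0.04. The ATPases, which form the ring that unfolds substrates and opens the gate of the core, were all higher: 6 of 6, with a median of 0.09 and a range from 0.04 for Psmc4 to 0.16 for Psmc1. Psmc1 had signals of 22260 and 24802. Psmc5 had 3737 and 4137, a log2 ratio of 0.15. Psmc4, the lowest, had 4280 and 4406. No probe of an ATPase gene lay below 0, the repeat probes of Psmc3 and Psmc4 included.

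The 11 other cap genes were more divided, with 7 higher and 4 lower and a median log2 ratio of 0.0053. In the lid, 5 of 8 genes were higher, with a median of 0.02 that became -0.02 under quantile normalization and -0.01 with the loess trend removed. Psmd14, the deubiquitinase that cuts the ubiquitin chain off the substrate, was highest, with signals of 6793 and 7693 and a log2 ratio of 0.18. Its other probe, dimmer at 1884 and 1931, gave 0.04. Psmd7, the lid subunit that pairs with Psmd14, had 5074 and 5011, a log2 ratio of -0.02, and Psmd11 was lowest in the lid, with 1813 and 1770 and a log2 ratio of -0.03. In the base, Psmd1, a scaffold subunit, had 10834 and 11151, a log2 ratio of 0.04, while Psmd4, a ubiquitin receptor, had 17456 and 17389, a log2 ratio of -0.0055. The other probe of Psmd4 gave 0.12, and those of Psmd1 gave -0.08 and 0.06.

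The medians of the core and the cap differed by 0.0093 on the log2 scale, and by -0.0033 to 0.02 under the alternatives. Taken as 1 group, 26 of 32 measured genes of core and cap were higher, with a median of 0.05. All measured genes of the β ring and all ATPases were higher, while the α ring and the non-ATPase cap genes held genes on both sides of 0. These subgroups hold 6 to 11 genes, and the differences between them were not tested.

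**Figure D3:**
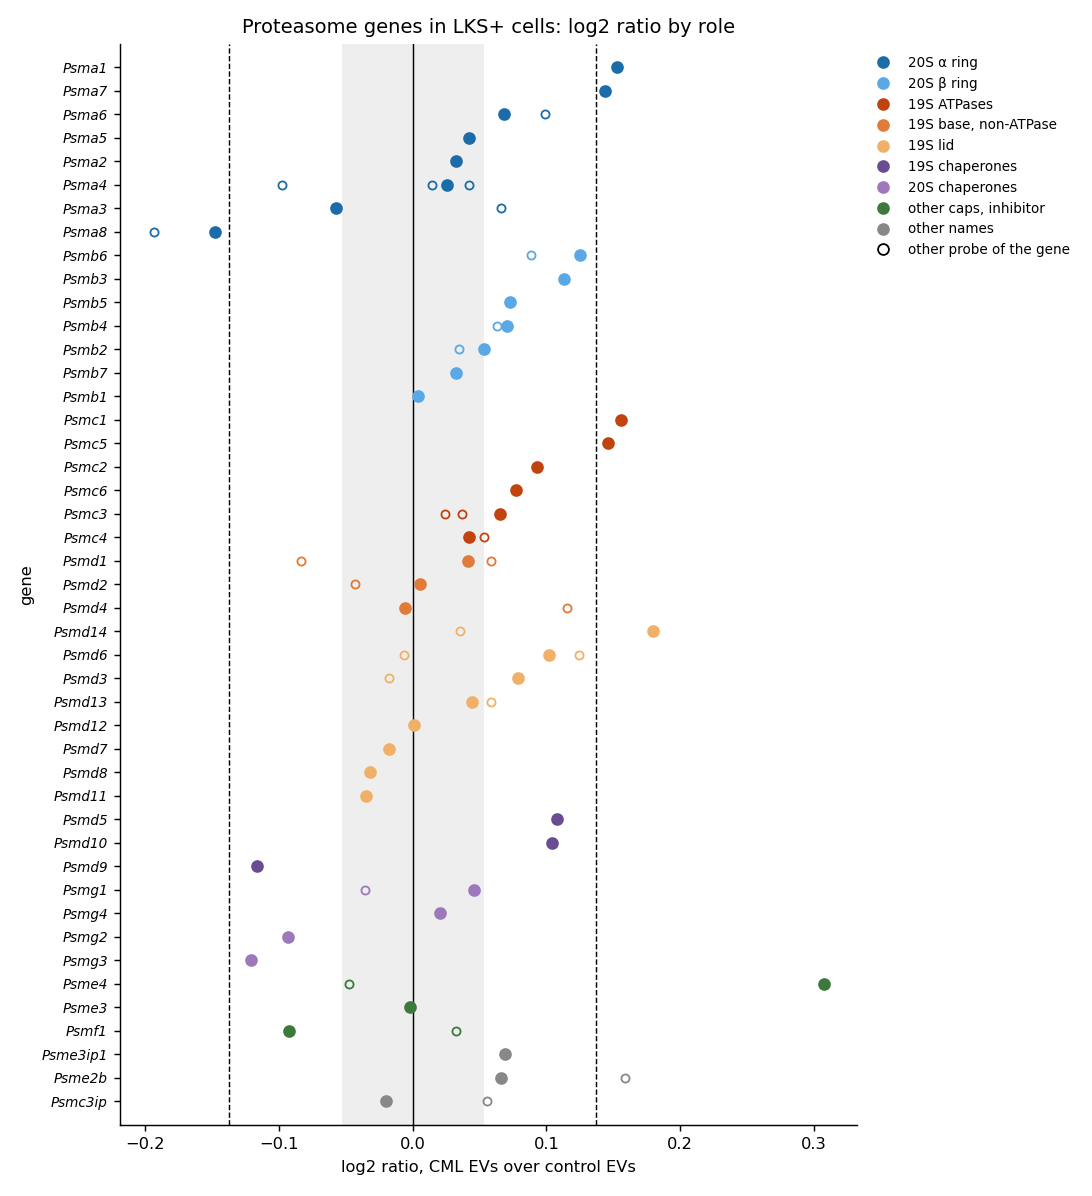
Log2 ratio, CML EVs over control EVs (x axis), of the 45 genes above background (y axis), ordered by role. Filled points are the probe used and open points the gene's other probes above background, the grey band is 1 SD of a repeated spot (0.05), and dashed lines mark 1.1-fold. All points of the β ring and the ATPases lie above 0, and Psme4 stands farthest right with its other probe below 0.

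The assembly chaperones did not go one way. For the cap, Psmd5 had signals of 1682 and 1812 (log2 ratio 0.11) and Psmd10, the oncoprotein gankyrin, 1952 and 2099 (0.10), but Psmd9 had 774 and 714 (-0.12). For the core, Psmg1 had 9919 and 10240 (0.05) and Psmg4 1384 and 1404 (0.02), while Psmg2 had 362 and 340 (-0.09) and Psmg3 3686 and 3390 (-0.12). Psmg1 works as a dimer with Psmg2 and Psmg3 with Psmg4, so that in each dimer 1 gene lay above 0 and the other below, although the other probe of Psmg1 gave -0.04 and all 4 genes lay below 0 with normexp (Psmg1 at -0.03 and Psmg4 at -0.04). The median of the 4 core chaperones was -0.04.

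Psme4 had the highest ratio of the 45 genes. It codes for PA200, a large cap of the cell nucleus that opens the core without ATP and is known for the degradation of acetylated histones. It was at 5129 on the control EV array and 6347 on the CML EV array, a log2 ratio of 0.31 or 23.8% more. A dimmer probe for the same transcript gave 412 and 399, a log2 ratio of -0.05, so that the difference rests on 1 probe, and the mean of both probes was 0.13. The 0.35 between these probes was the widest gap of any member. Psme3, the nuclear cap PA28γ, had 1335 and 1333, and Psmf1, the inhibitor PI31, had 606 and 569, a log2 ratio of -0.09. The other probe of Psmf1 lay above 0, at 0.03.

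Another 3 genes match the name but are no constitutive subunits. Psmc3ip, a factor of meiotic recombination, had 2281 and 2250 (log2 ratio -0.02), and Psme3ip1, which binds Psme3, had 1299 and 1362 (0.07). Psme2b had 27556 and 28843 (0.07). It is a near copy of the interferon-induced Psme2, to which no probe was assigned by its accession, so what this probe reports is uncertain.

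Repeat probes give a further view of the error. Of the 21 members with more than 1 probe above background, 9 had all probes above 0, Psma8 had both below 0, and 11 had probes on both sides of 0. The median range between probes of a member was 0.08, and the widest after Psme4 was 0.14, for Psmd14. Over all 71 member probes above background, 51 were higher and 20 lower, with a median log2 ratio of 0.04. For comparison, 836 genes on the array had exactly 2 probes with a mean signal of at least 1000, and their probes differed by a median of 0.06 and a 95th percentile of 0.20.

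With the probes used, the interferon-induced counterparts did not lie above their constitutive genes. Of the 4 measured, 3 were higher and 1 lower, with a median log2 ratio of 0.0072. Psmb9 (β1i) had signals of 7599 and 8162, a log2 ratio of 0.10. Psmb10 (β2i) had 17740 and 17764, a log2 ratio of 0.0019. Psmb8 (β5i) had 12230 and 11986, a log2 ratio of -0.03. With these probes the ratio of the interferon-induced gene was the lower in each pair. The difference was 0.02 for Psmb9 against Psmb6, 0.03 for Psmb10 against Psmb7 and 0.10 for Psmb8 against Psmb5. The other probe of Psmb6 gave 0.09, below Psmb9, so the order in that pair depends on the probe. Differences of 0.02 and 0.03 are also below the SD of 0.05 for the log2 ratio of a single spot. For probes between 1000 and 16384, the range of the Psmb8 and Psmb5 probes, that SD was 0.10, about the size of that pair's difference. Each difference also holds the error of both its ratios. Over the alternatives the difference ran from -0.14 to -0.0035 for the first pair, from -0.07 to -0.03 for the second and from -0.13 to -0.10 for the third. Psme1, of the interferon-induced PA28 cap, had 16079 and 16218.

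**Figure D4:**
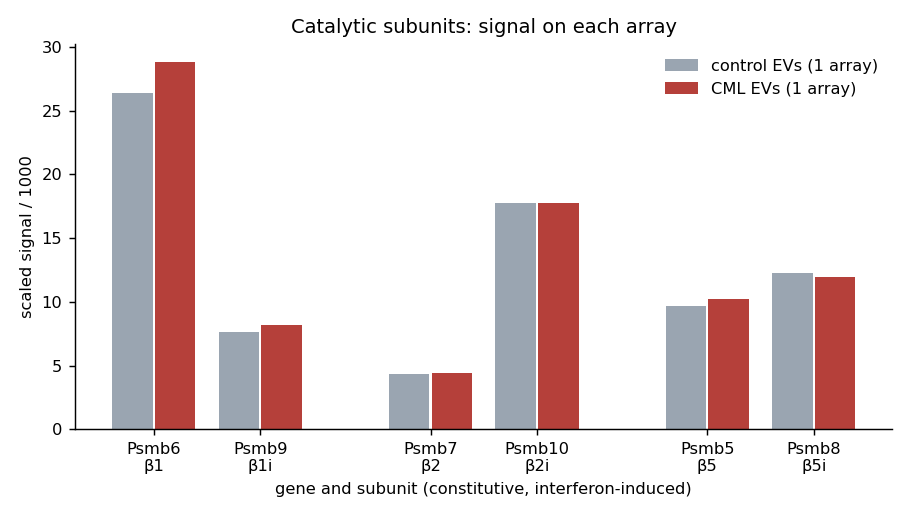
Scaled signal, divided by 1000 (y axis), of the constitutive catalytic subunits and their interferon-induced counterparts (x axis) on the control EV array (grey) and the CML EV array (red), 1 array each. The bars of a gene are nearly level, the widest gap being that of Psmb6, and heights of different genes are not comparable because each probe binds with its own strength.

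Genes that work with the proteasome moved by similarly small amounts. Of 16 listed partners outside the name rule (ubiquitin receptors, deubiquitinases and assembly factors), 15 were measured, 11 higher and 4 lower, with a median log2 ratio of 0.04. Ubqln2, a ubiquitin shuttle, was highest (2884 and 3120, log2 ratio 0.11). Adrm1, a ubiquitin receptor of the cap, had 2906 and 3129 (0.11), Sem1, a small cap subunit, 40199 and 41504 (0.05), and Pomp, which matures the core, 29289 and 29646 (0.02). None of the 15 reached 1.1-fold.

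The 7 regulators of the NFE2L1 response were divided, with 3 higher and 4 lower and a median log2 ratio of -0.01, which became 0.06 under median scaling. Nfe2l1 itself had 3115 and 3204 (log2 ratio 0.04). Ddi2, the protease that activates NFE2L1, was lowest (448 and 392, -0.19), and Mafg, a binding partner, highest (7460 and 8016, 0.10). Of 6 genes of ubiquitin and its activating enzymes, 5 lay below 0, at a median of -0.02 that became 0.05 under median scaling. The highest was Uba1 (19370 and 19551, 0.01), which codes for the main activating enzyme. Of 6 genes of the p97 segregase, which pulls ubiquitinated proteins out of complexes for the proteasome, 5 were higher, with a median of 0.05. Nsfl1c was highest (7741 and 8631, 0.16) and Faf2 lowest (648 and 642, -0.01).

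**Figure D5:**
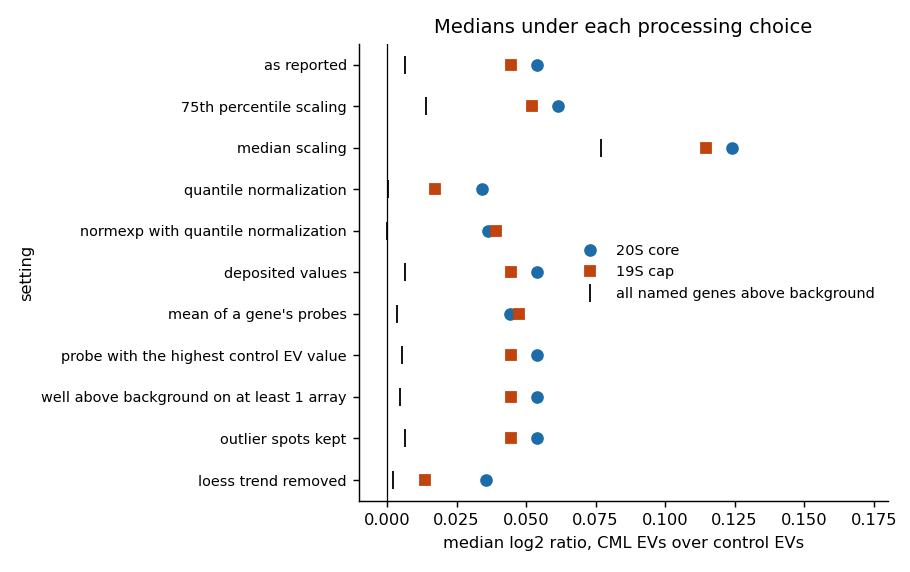
Median log2 ratio, CML EVs over control EVs (x axis) of the 20S core (circles), the 19S cap (squares) and all named genes above background (ticks) under the reported processing and 10 alternatives (y axis). Core and cap lie right of the all-gene tick in every row, and median scaling moves all of them to the right together. The tick does not take brightness into account: 31 of the 32 core and cap genes have a mean signal of at least 1000. All 5765 named genes of that brightness had a median of 0.02 under the reported processing.

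The medians of the LKS, neutrophil, megakaryocyte and erythroid markers lay farther from 0 than that of the proteasome genes (0.04). The median of the monocyte and macrophage markers was close to it. Of 10 LKS markers 9 lay below 0, at a median log2 ratio of -0.20 and summed signals of 44320 and 39759. Kit was at 1646 and 1529 (log2 ratio -0.11), and Ly6a, the gene of Sca-1, at 1548 and 1985 (0.36). Of 9 measured neutrophil markers 8 were higher, with a median of 0.67 and a summed signal of 466710 and 602056. All 6 megakaryocyte markers were lower (median -0.29), 5 of 7 monocyte and macrophage markers were higher (median 0.05, summed signal 49577 and 67262), and 4 of 5 erythroid markers were higher (median 0.23). Of lymphoid markers, Cd79b, Cd3e and Cd4 were above background on both arrays, and Cd79a, Ms4a1, Cd3g, Cd8a and Ncr1 were not. The part of these shifts in the ratios of the proteasome genes was not tested.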

How the data were processed

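RNA of LKS+ cells was hybridized to 2 one-colour Agilent mouse arrays, 1 per group. The authors deposited scanner files with a processed intensity per spot, from which the scanner software had taken off the background (Agilent Feature Extraction, version 12.0.3.1 in the submitters' processing notes), and a value table with the same intensity times 1 factor per array, which deviated by at most 5.0e-10. This scaling brings the mean over spots without the upper and lower 2% to 2500.

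Here the scaling was redone on all spots other than control spots. Outlier spots (95 and 88 spots) were left out after scaling, and a probe's other spots were averaged as log2. By the scanner's flags, 54.4% (control EVs) and 53.3% (CML EVs) of spots were well above background, and none was saturated. Probes were named through their RefSeq accession with the RefSeq table of GRCm38.p6, which named 32994 of 56605 probes. Of a gene's probes the one brightest on the CML EV array was used. The array design refers to another assembly, so no gene coordinates are given other than those of RefSeq promoters.

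Named were the catalytic subunits and their interferon-induced counterparts, the highest and lowest gene of each role or pathway list, members at least 1.1-fold apart or not above background, members whose probes disagreed, Nfe2l1, Pomp, Adrm1, Sem1, Kit and Ly6a. Some genes that this rule names are not reported here. Members and lists were chosen with earlier results of these data known, and the division of the β ring and of the non-ATPase cap genes was made after seeing the values, as was naming the other members given. The scaling and the log2 ratio per gene were tested on simulated data. Alternatives covered scaling (75th percentile, median, quantile), normexp (limma 3.58.1, offset 50) on the median spot signal, the deposited values, choice of probe, background filter, outlier spots, fold threshold and a loess fit (statsmodels 0.14.6, span 0.3). A filter to a mean signal of at least 1000 was added later, with the values seen. Scripts ran in R 4.3.3 and Python 3.11.15 with pandas 2.3.3 and numpy 2.4.6. The number of arrays limits the precision.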

Additional observations from a re-analysis of the deposited data

How the results depend on the processing

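Over the 12 alternatives run on it, the median log2 ratio of the 45 genes stayed above 0 (0.0082 to 0.11), as did that of the 20S core (0.03 to 0.12), and that of the 19S cap over 13 (0.01 to 0.11). Between 27 and 40 genes were higher. Under the reported setting and all 10 alternatives run on single genes, 26 genes were above 0 and 5 below (Psma8, Psmd9, Psmf1, Psmg2 and Psmg3). The α ring and the lid had a median below 0 at their lowest (-0.0017 and -0.02).

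Median scaling raised the median of all genes by 0.07 and turned the all-gene split at 1.1-fold from 50.1% higher (2317 higher, 2310 lower) to 74.95% (4258 and 1423). Under it the medians became 0.12 for the core, 0.11 for the cap and 0.11 for all members, 0.11 for the α ring, 0.14 for the β ring, 0.16 for the ATPases, 0.0932 for the lid, 0.11 for the partners, 0.0587 for NFE2L1 regulators, 0.0525 for ubiquitin and 0.12 for p97. Only 5 members were then lower, 18 were 1.1-fold higher and 0 lower.

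Quantile normalization, normexp with quantile normalization and the loess fit each left 2 members 1.1-fold higher and 2 lower, in place of 6 and 1. Over all genes, 2360 were then 1.1-fold higher and 2185 lower of 13410 (quantile), 1779 and 1553 of 13413 (normexp), and 2412 and 2119 of 13410 (loess). Psme4 was among the higher in all of these, and Psma8 and Psmg3 were the lower. With the mean of its probes, Psme4 fell to 0.13. With normexp, Psmb9 lay below Psmb6 by a log2 difference of -0.14, and the NFE2L1 regulators had a median of 0.0511. With a threshold of 25% or 50% more in place of 10%, 0 members were higher and 0 lower. Of the 5765 genes with a mean signal of at least 1000, 123 were higher and 26 lower at 25%, and 33 and 8 at 50%. The causes of these shifts were not tested. Naming by a gene name column was not run, since the files used here carry none. No paired analysis was possible because each group held a single array.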

Other observations

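Protein complexes related to the 19S lid or of similar abundance were looked at after the proteasome values had been seen. The COP9 signalosome, a complex built like the lid that removes NEDD8 from cullin ubiquitin ligases, had 7 of 10 genes higher with CML EVs. Over all named genes above background, 51.9% were higher. The complex had a median log2 ratio of 0.06. Its catalytic gene Cops5, the counterpart of Psmd14, was highest, with signals of 12583 and 13938 and a log2 ratio of 0.15, and Cops3 was lowest, with 2113 and 1957 and a log2 ratio of -0.11. Their other probes reached 0.0072 for Cops5 and 0.04 for Cops3. Cops4, Cops6 and Cops8 were counted as higher, but each had another probe below 0, at -0.07, -0.03 and -0.11. The CCT chaperonin, which folds actin and tubulin, had 4 genes higher and 4 lower, with a median of 0.0069. Cct7 had 15498 and 17555, a log2 ratio of 0.18, and Cct4 had 23048 and 21989, a log2 ratio of -0.07, with another probe at 0.07. These lists were described only, and the differences between complexes were not tested.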
